A study of Homo sapiens with 4 samples.

Results

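Histone variants are the non-canonical forms of the nucleosome proteins and of linker histone H1, and 9 genes encoding them were followed here among the 57905 genes of the count tables. The genes were chosen by name, as variants whose transcripts carry a poly(A) tail: H2AZ1, H2AZ2, H2AX, H2AJ, MACROH2A1 and MACROH2A2 of the H2A family, H3-3A and H3-3B encoding H3.3, and the linker histone gene H1-10. RNA was sequenced from U87MG, an established wild-type human glioblastoma (GBM) cell line, in 2 control samples left untreated and 2 samples exposed to chaetocin at 50 nM for 24 h. Chaetocin is a fungal epidithiodiketopiperazine used as an inhibitor of histone methyltransferases. It was dissolved in DMSO while control cells received nothing, so the drug and its solvent cannot be told apart. The labels do not say whether the samples of a group came from separate cultures, and p-values then measure only the spread between these samples.

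Most histone genes are transcribed in S phase to package newly copied DNA, and their mRNAs end in a stem-loop in place of a poly(A) tail. Variant genes are mostly transcribed throughout the cell cycle, make polyadenylated mRNA, and supply histones that are exchanged into chromatin outside replication. H2A.Z and H3.3 are placed at promoters and enhancers by dedicated complexes, H2A.X is phosphorylated around DNA double-strand breaks, and macroH2A marks repressed chromatin. The libraries were made from RNA selected for poly(A) tails.

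Totals ranged from 21241984 to 32590479 reads per sample, of which 95.9% to 96.8% fell on protein-coding genes, and 3 reads corresponded to 0.0844 to 0.138 CPM, the reads on a gene scaled to a common library size after TMM normalization. Of 10 glioma and mesenchymal markers, 8 passed the filter on low counts. VIM, FN1, CD44 and TGFBI were abundant, whereas SOX2 and S100B had 0 reads in both controls and at most 5 with chaetocin. The glial genes GFAP and OLIG2 passed the filter at low levels. GFAP had 1.02 and 0.87 CPM in controls and 0.46 and 0.48 with chaetocin. OLIG2 had 2.58 and 2.26 CPM in controls and 2.07 and 1.10 with chaetocin. None of the 8 was called by edgeR, while DESeq2 called 4 lower. All 8 log2 fold changes were below 0, with a median of -0.78, where 50.9% of all genes tested were above 0. At an unadjusted edgeR p under 0.05, 5 were lower, where 9.43% of all genes were. EGFR had 282 and 258 CPM in controls and 153 and 169 with chaetocin (adjusted p = 0.0514, edgeR, and 0.00181, DESeq2). CD44 had 2653 and 2480 CPM against 1431 and 797 (adjusted p = 0.0699, edgeR, and 8.62e-05, DESeq2). Summed over the 10 markers, the level was 15503 and 11949 CPM in controls and 9158 and 6036 with chaetocin. Of 10 markers of other cell types in the tables, 5 were tested and the sum was 3.17 to 3.77 CPM in controls and 5.88 to 6.30 with chaetocin. The leukocyte gene PTPRC, with 0 and 1 reads in controls and 15 and 27 with chaetocin, was the 1 called (adjusted p = 0.0412, edgeR), a call that DESeq2 did not make (adjusted p = 0.0569), and CD3E and KRT5 were at 0 throughout. The part of these shifts in the values of the histone variants was not tested.

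Among the histone variants, H2AX was the 1 gene called higher with chaetocin, and none of the others passed the test in either direction. Of the 9 genes 8 had enough reads to be tested, and 1 was called higher where 1.11% of the 16416 genes tested were, and 0 lower where 0.743% were (edgeR quasi-likelihood test, adjusted p under 0.05). DESeq2 gave the same counts, 1 higher and 0 lower, against 2.25% and 2.82% of its 16945 genes. At an unadjusted edgeR p under 0.05 the counts were again 1 and 0, with 10.9% and 9.43% of all genes. Both chaetocin samples lay above both controls for 6 of the 8 genes and below for 0, where 26.8% and 26% of all tested genes did so. All 8 log2 fold changes were above 0, where 50.9% of all genes tested were. Their median was 0.14, while the median over all genes tested was 0.01.

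**Figure D1:**
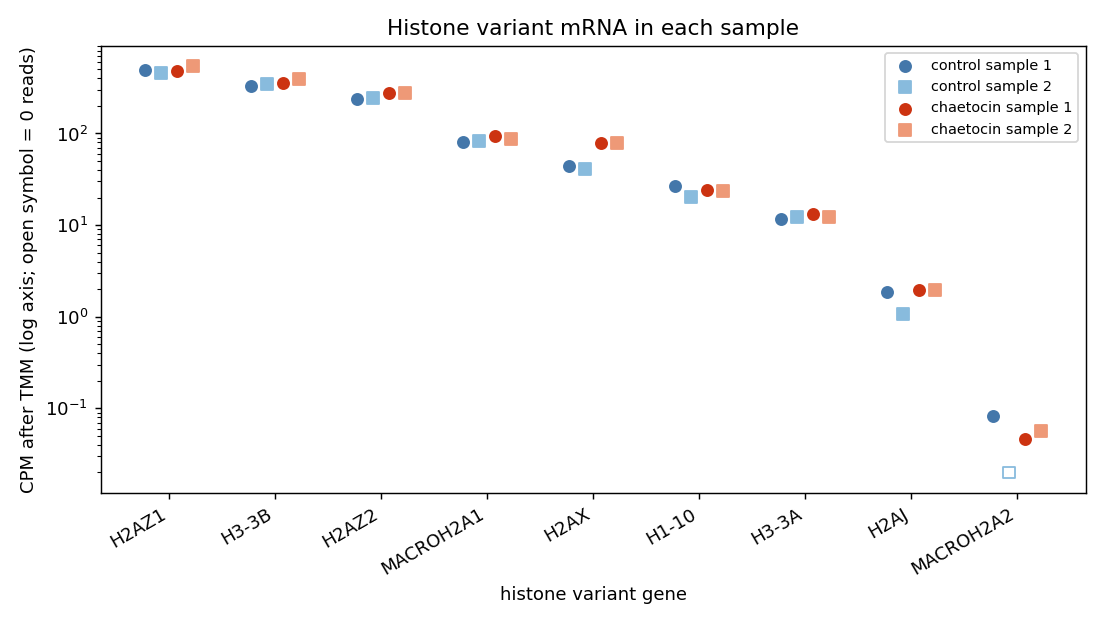
CPM after TMM scaling on a log axis for the 9 histone variant genes, ordered by mean level, with 1 symbol for each of the 4 samples and open symbols for 0 reads. The chaetocin samples lie above both controls for 6 genes, among them H2AX (79.6 and 79.6 against 44.2 and 41.1 CPM) and H2AZ2 (279 and 280 against 235 and 245 CPM), and MACROH2A2 stays at or below 2 reads.

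H2AX, which encodes the H2A variant that ATM and related kinases phosphorylate at sites of DNA damage, lies on chromosome 11 from 119093854 to 119095467 on the minus strand (GRCh38, GENCODE v29). The controls gave 1078 and 1182 reads on this gene, the treated cells 1733 and 2829. After scaling these were 44.2 and 41.1 CPM in controls (42.7 ± 2.15, SD, n = 2) and 79.6 and 79.6 CPM with chaetocin (79.6 ± 0.00752, SD, n = 2). Both treated samples were high and both controls low, with no overlap. The log2 fold change was 0.90 with a standard error of 0.14 and a 95% interval of 0.58 to 1.23 and amounted to a 1.87-fold rise (adjusted p = 0.0306, edgeR). DESeq2 gave a log2 fold change of 0.88 (adjusted p = 0.000411). The call needed both control samples: without control sample 1 the log2 fold change was 0.94 (adjusted p = 0.0889, edgeR), and without control sample 2 it was 0.84 (adjusted p = 0.115, edgeR). These reads count mRNA and carry no information on phosphorylated H2A.X protein.

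The H2AX transcript also differs in structure from those of the other variants, since it can end either at a histone stem-loop or at a poly(A) site further downstream. The stem-loop was searched in the annotated coding transcripts as GG, any 2 bases, CTT, any base, T, any base, A, any 3 bases and CC, with a pairing stem of 6 bases and a loop of 4, and is shown here because it is the element that replication-dependent histone mRNAs end with, the 2 arms of the stem in capitals.

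H2AX stem-loop: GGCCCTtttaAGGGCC

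It started at base 555 of the 1614-base transcript, 49 bases past the stop codon, with 1044 bases of transcript after it. The same pattern was found in 49 of 19684 protein-coding genes, or 0.249%, and in 18 of 36 replication-dependent histone genes, and in no annotated coding transcript of the other 8 variants. The RNA was selected for poly(A) tails, which the short form of H2AX mRNA, ending at the stem-loop, lacks. The H2AX counts and their rise therefore refer mainly to the long, polyadenylated form. Any short form that remained was not separated, since reads were counted over the whole gene. A shift between the forms and a change in the total cannot be told apart.

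Promoters of the variants were compared because the H2AX promoter is known for its CCAAT boxes, the site of the factor NF-Y. The windows of 250 bases before the RefSeq start (GRCh38.p14) of H2AX and of the 3 most abundant variants are printed 5′ to 3′ with each CCAAT, or its reverse complement ATTGG, in capitals.

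H2AX, chr11:119095466-119095715, minus strand: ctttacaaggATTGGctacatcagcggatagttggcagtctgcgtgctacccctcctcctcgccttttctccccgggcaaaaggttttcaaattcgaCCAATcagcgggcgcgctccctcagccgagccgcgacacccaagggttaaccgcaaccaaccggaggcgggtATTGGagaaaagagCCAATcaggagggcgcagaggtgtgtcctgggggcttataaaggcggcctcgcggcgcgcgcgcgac
H2AZ1, chr4:99950276-99950525, minus strand: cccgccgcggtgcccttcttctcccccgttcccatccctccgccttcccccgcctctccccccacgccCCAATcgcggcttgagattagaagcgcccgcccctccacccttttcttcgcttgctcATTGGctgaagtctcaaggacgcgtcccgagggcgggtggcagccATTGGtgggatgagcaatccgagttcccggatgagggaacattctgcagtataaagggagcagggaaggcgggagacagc
H2AZ2, chr7:44848088-44848337, minus strand: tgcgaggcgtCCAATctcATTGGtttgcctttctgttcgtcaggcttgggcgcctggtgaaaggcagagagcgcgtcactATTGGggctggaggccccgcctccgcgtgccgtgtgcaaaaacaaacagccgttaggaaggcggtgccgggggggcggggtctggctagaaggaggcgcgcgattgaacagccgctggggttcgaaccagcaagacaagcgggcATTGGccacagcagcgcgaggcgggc
H3-3B, chr17:75779780-75780029, minus strand: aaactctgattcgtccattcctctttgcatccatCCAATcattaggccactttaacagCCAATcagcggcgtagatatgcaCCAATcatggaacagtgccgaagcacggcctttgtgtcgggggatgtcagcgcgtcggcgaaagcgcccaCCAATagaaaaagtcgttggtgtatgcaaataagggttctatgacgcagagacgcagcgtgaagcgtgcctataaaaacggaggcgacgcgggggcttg

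The motif CCAAT, on either strand, occurred 4 times in H2AX, at -240, -153, -81 and -67 from the start, 4 times in H2AZ2, 4 times in H3-3B and 3 times in H2AZ1. H2AJ also held 3, starting at -145, -79 and -65. Over 35116 windows of the same length 32.0% held at least 1, 2.93% held at least 3 and 0.874% held at least 4. H1-10 and MACROH2A2 had 0, the 2 windows of MACROH2A1 had 0 and 2, and the 4 windows of H3-3A had 1, 1, 0 and 1. The windows of H2AX, H2AZ2 and H3-3B held the same number of these letters, and a link to the changes in mRNA was not tested. The TATA box letters TATAAA were present in the windows of H2AX, H3-3B, H2AZ1 and H1-10 and in 10.7% of all windows. The letters TTTGAA, also searched, occurred once in the H2AX window, in no window of the other variants and in 13.3% of all windows. The pattern TGACNNNGC, with N for any base, was in no variant window and in 10.9% of all windows. A match of letters is a description of the window and not a measured binding site.

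H2A.Z is encoded by a pair of genes whose proteins differ at a few residues, and both were abundant. H2AZ1, on chromosome 4 from 99948086 to 99950388, had 497 and 461 CPM in controls and 485 and 542 with chaetocin, and the groups overlapped. Its log2 fold change was 0.10, with a 95% interval of -0.28 to 0.48 (adjusted p = 0.785, edgeR). H2AZ2, on chromosome 7 from 44826791 to 44848083, had 235 and 245 CPM in controls and 279 and 280 with chaetocin. The groups of H2AZ2 did not overlap, and its log2 fold change of 0.22 had an interval of -0.12 to 0.56 that included 0 (adjusted p = 0.450, edgeR). Within each library H2AZ1 had 2.11 and 1.88 times the reads of H2AZ2 in controls and 1.74 and 1.94 times with chaetocin. The log2 ratio differed by -0.12 between groups (exact two-sided permutation p = 0.667, where 2 against 2 samples cannot go below 0.333).

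Relative to H2A.Z, H2AX had a larger part of the reads with chaetocin, in ratios that do not depend on library scaling and that were chosen after the values were seen. H2AX had 0.0888 and 0.0893 reads for each H2AZ1 read in controls and 0.164 and 0.147 with chaetocin, a log2 difference of 0.80. Against H2AZ2 the ratios were 0.188 and 0.168 in controls and 0.286 and 0.285 with chaetocin, a log2 difference of 0.68. Neither pair of groups overlapped, and both exact two-sided permutation tests gave p = 0.333, the smallest possible. Of all reads on the 6 H2A variant genes, H2AX took 5.13% (95% exact binomial interval 4.84% to 5.44%) and 4.95% (4.68% to 5.24%) in controls. With chaetocin it took 8.48% (8.11% to 8.88%) and 8.05% (7.77% to 8.34%). These intervals cover counting error only, since PCR copies are not independent molecules.

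**Figure D2:**
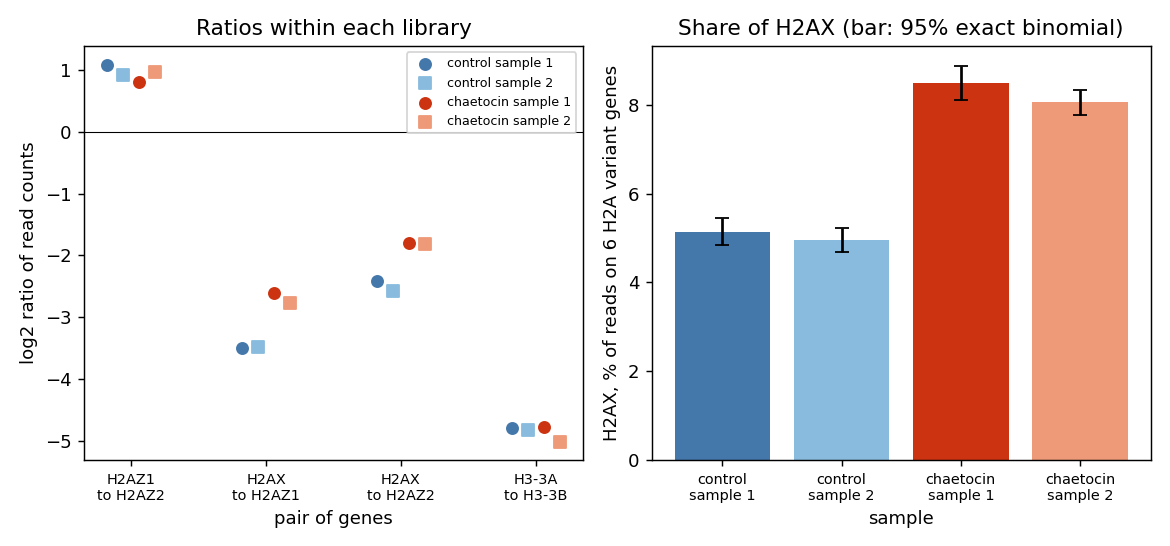
Left, log2 ratio of read counts within each library for 4 pairs of variant genes, 1 symbol per sample; right, the percent of reads on the 6 H2A variant genes that fell on H2AX, with 95% exact binomial intervals. The ratios of H2AX to H2AZ1 and to H2AZ2 are higher in both chaetocin samples, while the symbols of H2AZ1 to H2AZ2 and of H3-3A to H3-3B overlap between groups.

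The histone H3.3 protein is identical from H3-3A and H3-3B, and nearly all of the reads were on the second gene. H3-3B, on chromosome 17 from 75776434 to 75785893, had 327 and 347 CPM in controls and 357 and 398 with chaetocin, so that both treated samples lay above both controls. Its log2 fold change was 0.17, with an interval of -0.20 to 0.53 (adjusted p = 0.607, edgeR). H3-3A, on chromosome 1 from 226061851 to 226072001, had 11.8 and 12.2 CPM in controls and 13.1 and 12.4 with chaetocin, again without overlap. Its log2 fold change was 0.09, with an interval of -0.34 to 0.51 (adjusted p = 0.838, edgeR). The H3-3A reads were between 0.0311 and 0.0368 of the H3-3B reads in every library, and the log2 ratio differed by -0.08 between groups (exact two-sided permutation p = 1).

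The level of H3-3A is uncertain, because reads of 50 bases from its coding sequence also match copies elsewhere in the genome. All 362 stretches of 50 bases in its coding sequence had an exact match in the processed pseudogene H3F3AP4, which was at 0 reads in all 4 samples. Over its whole principal transcript, untranslated ends included, 28.8% of such stretches had an exact match in another gene. The 6 annotated copies of H3-3A together had 4 to 14 reads per sample. How reads with several matches were handled is not given in the sources used here. For H3-3B 26.5% of the stretches in the coding sequence were shared exactly, mostly with H3-5, a retrocopy with at most 1 read per sample. The coding shares were 30.8% for H2AZ2, 17.8% for H2AZ1, 1.31% for H2AX and 0 for the other 4 variants. Allowing 2 mismatches they became 74.6% for H2AZ1, 65.4% for H2AZ2, 74.9% for H3-3B, 24.8% for H2AX and 4.99% for H2AJ. The last 2 matched most often the gene annotated as HIST3H2A. Over whole transcripts the shares within 2 mismatches were lower, at 29.2% for H3-3A, 28.0% for H2AZ1 and 31.6% for H2AZ2. They were 26.2% for H3-3B and 6.07% for H2AX. Of 15 annotated copies of variants none passed the filter, their sum was at most 0.766 CPM, and the 3 with the most reads were H3F3AP2, H2AFVP1 and H2AFZP2, with at most 13 reads in a sample.

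MacroH2A carries a large macro domain behind its histone fold, and 1 of its 2 genes was expressed. MACROH2A1, on chromosome 5 from 135333900 to 135399914, had 81.7 and 83.1 CPM in controls and 93.1 and 86.1 with chaetocin. The treated samples were the higher ones without overlap, and the log2 fold change of 0.12 had an interval of -0.20 to 0.44 (adjusted p = 0.677, edgeR). Its splice forms were counted together. The antisense genes C5orf66 and AC026691.1 share 4968 and 509 exon bases with it and had 19 to 40 and 4 to 46 reads, and whether counting used strand is not given in the sources used here. MACROH2A2, on chromosome 10 from 70052796 to 70112280, had 2 and 0 reads in controls and 1 and 2 with chaetocin. All 4 values lay below the floor of 3 reads, so no fold change is given and a difference was not detectable at this depth.

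H2AJ, a variant whose protein accumulates in senescent fibroblasts, lies on chromosome 12 from 14774383 to 14778002 and was weakly expressed. It had 45 and 31 reads in controls and 43 and 69 with chaetocin, or 1.84 and 1.08 CPM against 1.98 and 1.94. Control sample 2 was the low value, and the log2 fold change of 0.43 had the widest interval of the 8 genes, -0.45 to 1.31 (adjusted p = 0.575, edgeR). It was 0.84 without control sample 1 and 0.076 without control sample 2. The linker histone gene H1-10, on chromosome 3 from 129314771 to 129316277, encodes the H1 variant that is polyadenylated and expressed independently of replication. It had 27.0 and 20.1 CPM in controls and 24.3 and 23.6 with chaetocin, so that the treated samples fell between the controls. Its log2 fold change was 0.03, with an interval of -0.40 to 0.46 (adjusted p = 0.955, edgeR). The antisense gene H1FX-AS1 shares 345 exon bases with it and had 33 to 50 reads per sample. Of the other variants, H3-3B shares 214 exon bases with UNK on the opposite strand (593 to 1285 reads) and H2AZ1 223 with AC097460.1 (2 to 5 reads), so these levels too depend on how strand was treated.

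**Figure D3:**
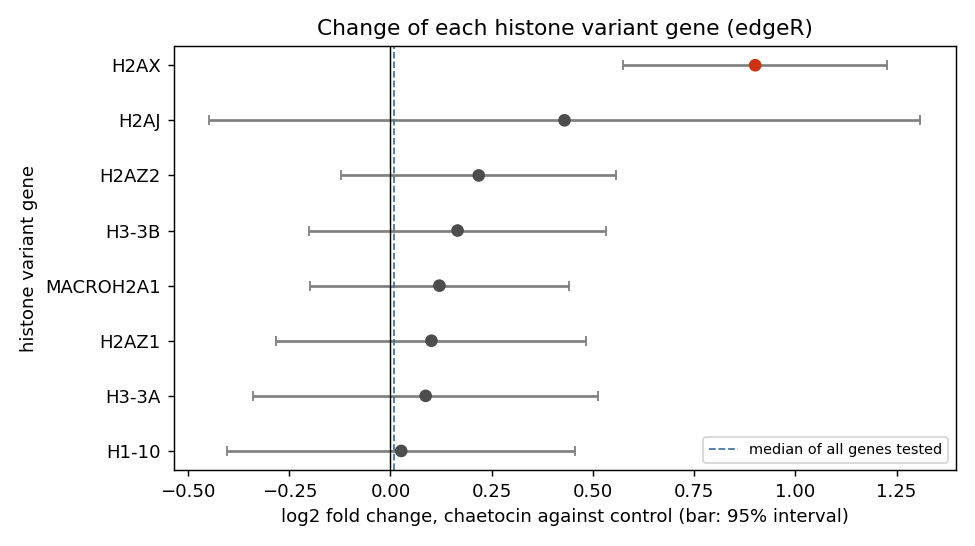
Log2 fold change of chaetocin against control for the 8 histone variant genes tested, with 95% intervals from edgeR, a solid line at 0 and a dashed line at the median of all genes tested. The interval of H2AX (0.58 to 1.23) lies above 0 and those of the other 7 genes include 0.

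Per length of the principal transcript, H2A.Z dominated the variants. In RPKM, which is CPM divided by transcript length in kilobases, H2AZ1 was at 471 to 554 and H2AZ2 at 313 to 372, followed by H3-3B at 121 to 147. MACROH2A1 at 29.3 to 33.4 RPKM and H2AX at 25.5 to 49.3 RPKM were next, and their order differed between groups on this scale. In the controls H2AX (27.4 and 25.5 RPKM) lay below MACROH2A1 (29.3 and 29.8 RPKM), and with chaetocin H2AX (49.3 and 49.3 RPKM) lay above it (33.4 and 30.9 RPKM). In CPM, which is not divided by length, H2AX lay below MACROH2A1 in all 4 samples. H1-10 at 13.4 to 17.9 RPKM, H3-3A at 9.02 to 10.0 RPKM, H2AJ at 1.68 to 3.07 RPKM and MACROH2A2 at no more than 0.0414 RPKM completed the order. Apart from MACROH2A1 and H2AX, no neighbours in this order overlapped in any sample, although each value rests on the length of a single transcript.

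The genes that deposit, exchange and read these variants were examined next, and none of the chaperone and exchange genes passed the edgeR test. Of 10 chaperones that deposit H3.3 or hand it on, 0 were called in either direction, 1 was higher and 1 lower at an unadjusted p under 0.05, DESeq2 called 1 higher and 0 lower, and the median log2 fold change was -0.09. ASF1B, which carries H3-H4 dimers mainly in proliferating cells, had 97.5 and 110 CPM in controls and 163 and 165 with chaetocin, with a log2 fold change of 0.66 (adjusted p = 0.0589, edgeR, and 0.0137, DESeq2). ATRX, the remodeller that works with DAXX to place H3.3 at repeats and telomeres, had 159 and 165 CPM against 118 and 121, with a log2 fold change of -0.44 (adjusted p = 0.135, edgeR). The groups did not overlap for either gene.

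Of 22 genes of the SRCAP, p400-TIP60 and INO80 complexes, which exchange H2A.Z, edgeR and DESeq2 called 0, 0 were higher and 1 lower at an unadjusted p under 0.05, and the median log2 fold change was -0.01. INO80, the ATPase of the complex of that name, had 55.5 and 56.5 CPM in controls and 37.5 and 38.7 with chaetocin, with a log2 fold change of -0.56 (adjusted p = 0.0853, edgeR). ANP32E, a chaperone that removes H2A.Z, had 125 and 142 CPM against 193 and 149, with a log2 fold change of 0.36 (adjusted p = 0.286, edgeR). Of 15 kinases, readers and chaperones of H2A.X and H2A, both tools called 0, 1 was higher and 1 lower at an unadjusted p under 0.05, and the median was 0.01. TP53BP1, a reader of damaged chromatin, had 111 and 130 CPM in controls and 80.3 and 92.6 with chaetocin, with a log2 fold change of -0.48 (adjusted p = 0.141, edgeR). MDC1, which binds phosphorylated H2A.X, had 29.1 and 35.7 CPM against 41.0 and 45.3, with a log2 fold change of 0.41 (adjusted p = 0.211, edgeR).

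**Figure D4:**
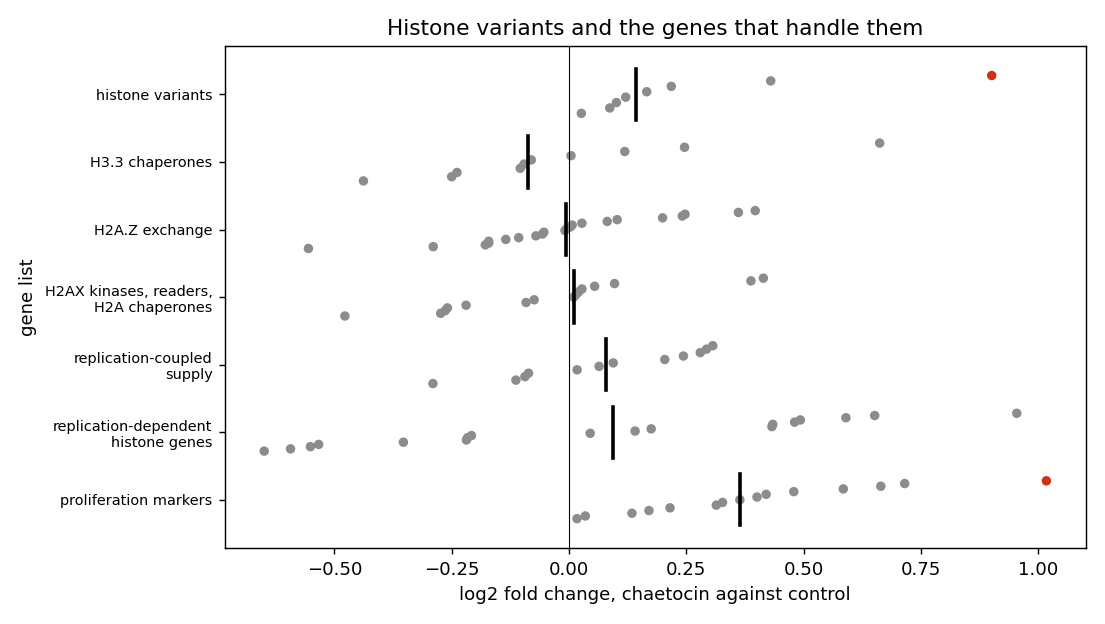
Log2 fold change of every tested gene in 7 lists, 1 dot per gene, with a black bar at each list's median and red dots for an edgeR adjusted p under 0.05. The 2 red dots are H2AX (0.90) among the histone variants and RRM2 (1.02) among the proliferation markers.

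Because H2AX carries the stem-loop of S-phase histone genes, genes of that group and of proliferation are given beside it. Of 36 replication-dependent histone genes 18 were tested, both tools called 0 of them, 1 was higher and 0 lower at an unadjusted p under 0.05, and the median log2 fold change was 0.09. The sum over the 36 genes was 52.1 and 57.4 CPM in controls and 60.0 and 64.5 with chaetocin, in libraries selected for poly(A). The 4 with the highest levels were H2BC12, H1-2, H2AC6 and H2BC21, and their log2 fold changes were 0.49, -0.65, -0.21 and 0.43 (adjusted p = 0.207, 0.295, 0.668 and 0.518, edgeR). Of 12 genes of replication-coupled histone supply both tools called 0, 0 had an unadjusted p under 0.05, and the median was 0.08. SLBP, the protein that binds the stem-loop, had 134 and 150 CPM in controls and 172 and 179 with chaetocin, with a log2 fold change of 0.31 (adjusted p = 0.284, edgeR). LSM10, a subunit of the snRNP that cuts histone mRNA ends, had 32.9 and 28.3 CPM against 26.6 and 23.5, with a log2 fold change of -0.29 (adjusted p = 0.370, edgeR).

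Of 15 proliferation markers 1 was called higher and 0 lower by edgeR, and DESeq2 called 2 higher. At an unadjusted edgeR p under 0.05, 7 were higher and 0 lower, where 10.9% and 9.43% of all genes were. All 15 log2 fold changes were above 0, with a median of 0.36, where 50.9% of all genes tested were above 0. Both chaetocin samples lay above both controls for 11, where 26.8% of all genes did so. Summed, they were at 2932 and 3228 CPM in controls and 3913 and 4227 with chaetocin. RRM2, a subunit of the ribonucleotide reductase that makes DNA precursors, rose from 322 and 323 CPM to 678 and 628, with a log2 fold change of 1.02 (adjusted p = 0.0311, edgeR). These mRNA levels do not measure how fast the cells divided. After a higher dose of chaetocin the paper reports a smaller share of U87MG cells in S phase. The part of proliferation in the higher H2AX level was not tested. Among 10 further histone variants in the tables CENPA, the centromeric H3 variant, was the 1 with enough reads to test. It had 43.3 and 49.6 CPM in controls and 65.6 and 68.7 with chaetocin, with no overlap and a log2 fold change of 0.53 (adjusted p = 0.102, edgeR). Of the other 9, 6 were at 0 in every sample and none exceeded 9 reads in a sample. One of these 9, H2BU1, is also counted among the 36 replication-dependent histone genes under its cluster name H2BC26, and it had 1 read in all.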

How the data were processed

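The data were RNA-seq libraries of 2 control and 2 chaetocin samples of U87MG. The authors deposited 1 table of raw read counts per gene and sample, without normalization. The submitters' processing notes name cutadapt, TopHat2, TopHat, SAMtools and the GRCh37 build without versions, and the counting tool, strand setting and treatment of reads with several matches are not given in the sources used here. The study's methods name DESeq2.

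Counts were tested with edgeR 4.0.16 in R 4.3.3 by the quasi-likelihood test, with filterByExpr (minimum count 10), TMM factors, a robust fit, no covariates and Benjamini-Hochberg adjustment at 0.05. Gene symbols and positions were looked up in GENCODE v29 (GRCh38), where 52338 of 57905 identifiers were found. Promoters came from RefSeq, with a window for each of the 9 variants. CPM used TMM-scaled library sizes, and RPKM divided these by the length of the principal transcript. Stretches of 50 bases were matched to annotated transcripts exactly and within 2 mismatches. Floors of 3 counts and binomial intervals cover counting error only. The procedure was tested on simulated counts, where it missed a part of the changes put in, more of the smaller ones, so a gene that was not called is not shown to be unchanged.

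The 9 genes and the gene lists were chosen with earlier results of these data known, so lists are described by counts and medians. Named genes were all 9 variants; from each other list the genes called, at most 4, or the 2 with the smallest p where none was called; the 4 replication-dependent histone genes with the highest mean CPM; and at most 3 copies with the most reads. Markers of the labelled cell type named beyond this rule (VIM, FN1, TGFBI, SOX2, S100B, GFAP and OLIG2), CD3E and KRT5 were chosen after their values were seen. Alternatives were other size factors, filters, DESeq2 1.42.0, a replicate block, thinned counts and leaving out each sample.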

Additional observations from a re-analysis of the deposited data

How the results depend on the processing

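H2AX was called in all alternatives that kept the 4 samples, with log2 fold changes of 0.88 to 1.07. Leaving out 1 sample gave 0.84 to 0.94 and adjusted p-values of 0.000384 to 0.115, and the number of histone variants called higher was 0 to 1, being 0 without either control sample. In those fits a lone sample is assumed to vary like the other group. Of 96 values for the 8 variants, 92 kept direction and side of the threshold. H3-3A turned to -0.040 when counts were thinned to the smallest library, and H1-10 to -0.18 without control sample 2, its range being -0.18 to 0.24 when 1 sample was left out. H2AJ moved the most, from 0.076 to 0.84, and was not called in either fit. Scaling by total count alone moved the median of all genes by 0.16, and the 8 variants stayed above 0 with a median of 0.31 where that of all genes was 0.17. The causes were not tested.

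Genes called higher and lower numbered 182 and 122 in the fit reported, 360 and 73 with total counts, 787 and 759 with no filter, 114 and 80 where every sample needed 10 counts or more, 382 and 478 with DESeq2, and 1036 and 1053 (6.31% and 6.41%) with the replicate block. Leaving out 1 sample gave 215 to 1332 higher and 97 to 1673 lower, the highest without chaetocin sample 1 (1332 and 1673), with 712 and 940 without chaetocin sample 2. The ratio of H2AZ1 to H2AZ2 ranged from -0.20 to -0.03, of H3-3A to H3-3B from -0.20 to 0.04, of H2AX to H2AZ1 from 0.72 to 0.88 and of H2AX to H2AZ2 from 0.60 to 0.76 (log2 differences) when 1 sample was left out, and the block gave the same differences as without it, -0.12, -0.08, 0.80 and 0.68. The ratio of MACROH2A1 to MACROH2A2 was not computed, since a library had 0 reads of MACROH2A2.

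DESeq2 called 1 H3.3 chaperone higher, 2 proliferation markers higher and 4 glioma markers lower. The replicate block called 1 H3.3 chaperone higher, 1 H2A.Z exchange gene lower, 1 gene of the H2AX kinases and readers lower, 1 other histone variant higher, 5 proliferation markers higher and 5 glioma markers lower. Samples share numbers 1 and 2 by label only, and deviations of same-numbered samples correlated over 16416 genes with r = 0.12. With the block 1 histone variant was again called, H2AX, at a log2 fold change of 0.90. Depth limited MACROH2A2, and the few reads of H2AJ gave it a wide interval.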
